A study of Mus musculus with 8 samples.

Results

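The T cell and cytotoxic genes examined here were a list of 10 genes chosen by symbol: the CD3 chains Cd3d, Cd3e and Cd3g, the kinase Lck, the co-receptors Cd4, Cd8a and Cd8b1, the granzymes Gzma and Gzmb, and the integrin Itgae. Of these, 9 genes were found in the deposited array table, at 15 of its 25697 probes, and Gzma was not analysed here. Total RNA from 8 colon tumors of mice was hybridised to Illumina bead arrays, 4 tumors of genotype APCmin/+/VP16LXRa (replicates 5 to 8) and 4 of genotype APCmin/+/VP16 (replicates 1 to 4). Every mouse was APCmin/+, that is, heterozygous for a truncating Apc mutation that leads to tumors of the gut, was 8 months old and came from a C57BL/6J-FVBN Mixed Strain. In VP16LXRa mice the transgene encoded the liver X receptor alpha (LXRα), a cholesterol-sensing nuclear receptor, fused to the viral activation domain VP16, and in VP16 mice it encoded VP16. The labels used here do not name the promoter of the transgenes, and do not say whether the tumors came from separate mice, so a p-value here speaks only of the spread among these 8 tumor samples.

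T cells recognise peptides on MHC molecules through an antigen receptor whose signal is passed on by the CD3 chains and the kinase Lck, which rides on the co-receptors CD4 and CD8. Cytotoxic T cells and NK cells kill their targets with perforin and granzymes. In the gut many T cells lie within the epithelium, where the integrin αEβ7, whose α chain is encoded by Itgae, holds them to E-cadherin on epithelial cells. In RNA of a whole tumor, fewer T cells and less RNA per T cell cannot be told apart.

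The labelled tissue was checked against 12 colon epithelium markers, of which 10 were in the table. All 10 were tested, each detected on at least 7 of 8 arrays. Such markers speak of colon epithelium and do not tell tumor from normal colon. Raw median signals were 126.2 to 140.3 in VP16LXRa arrays and 139.7 to 145.8 in VP16 arrays, and a probe was called detected where its detection p-value was under 0.01. Per array, 11469 to 12257 probes were detected in VP16LXRa tumors and 11618 to 11803 in VP16 tumors, and the 11875 probes detected on at least 4 arrays, for 9110 genes, were tested. VP16LXRa replicate 5 and VP16 replicate 1 stood apart from the other tumors, as earlier results of these data had shown. Axin2, a feedback target of Wnt signalling, had log2 intensities of 11.54 and 11.35 in these tumors and of 8.51 to 9.15 in the other 6. The members and each gene list below are given with and without this pair of tumors.

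On the cytotoxic side of the list Gzmb was not detectable, and Gzma was not analysed. The single Gzmb probe, for granzyme B, had raw signals of 106 to 120 in VP16LXRa tumors and 113 to 128 in VP16 tumors, with detection p-values of 0.49 to 0.877 and 0.272 to 0.872, so that it was detected in 0 of 8 tumors. Of 9 granzyme genes in the table, 7 were detected on no array. Gzmm, for granzyme M, passed the detection limit in 2 of 4 VP16LXRa tumors and 0 of 4 VP16 tumors, and Gzmk, for granzyme K, in 0 of 4 VP16LXRa and 1 of 4 VP16 tumors. Gzmb RNA was thus not detectable at this probe, which is not to say absent. The values that follow are therefore mostly those of T cell genes rather than of killing genes.

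The co-receptors were detected unevenly. Cd8a, the alpha chain of CD8, was detected in 0 of 8 tumors, with raw signals of 101 to 117 in VP16LXRa tumors and 114 to 119 in VP16 tumors. Cd4 passed the detection limit in none of the VP16LXRa tumors and in 1 of 4 VP16 tumors, replicate 4, where its raw signal was 153. Its signals were 115 to 138 in VP16LXRa tumors and 124 to 128 in VP16 replicates 1 to 3. Cd8b1, the beta chain of CD8, has a pair of probes in the table. ILMN_2741169 passed the detection limit in 4 of 4 VP16LXRa tumors and 3 of 4 VP16 tumors. ILMN_2664929 passed it in 0 of 4 VP16LXRa tumors and in 1 VP16 tumor, again replicate 4. Cd8a and Cd4 were thus at or near background on these arrays, which is not to say absent, and were not tested. Both carry a single probe in the table.

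**Figure D1:**
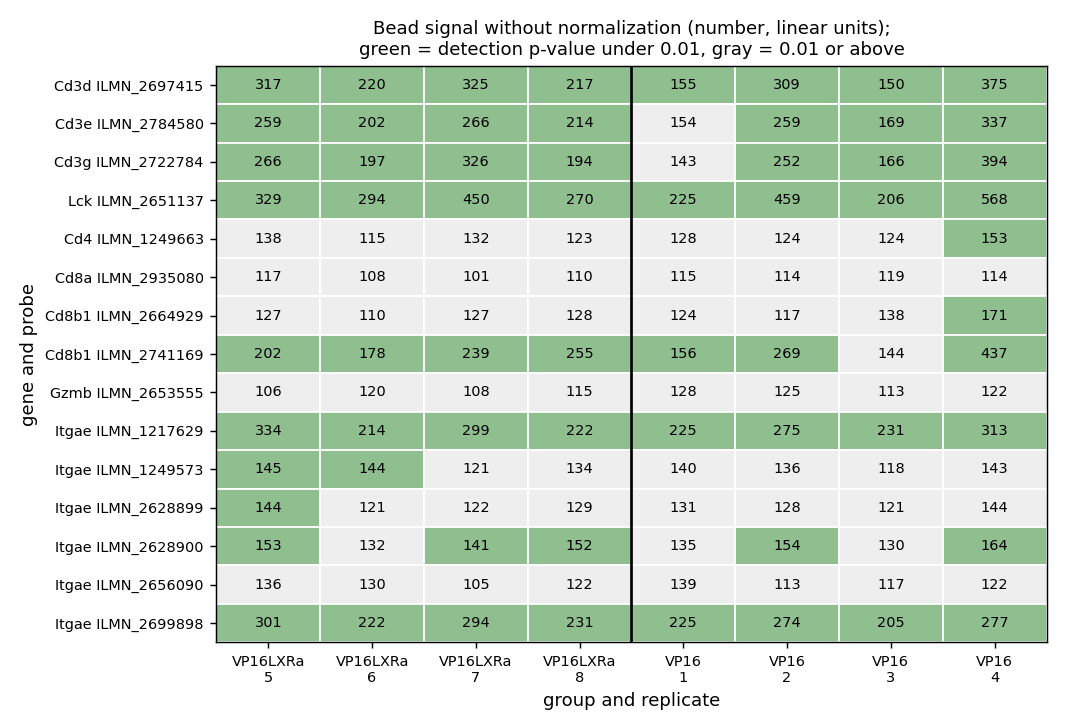
Raw bead signal (number in each cell, linear units) of the 15 probes of the list in each tumor, VP16LXRa replicates 5 to 8 on the left and VP16 replicates 1 to 4 on the right. Green cells have a detection p-value under 0.01. Cd8a, Gzmb and 1 of 6 Itgae probes are green in no tumor, and Cd4 is green in VP16 replicate 4 only.

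Counted over the 15 probes, 10, 8, 8 and 8 were detected in VP16LXRa replicates 5 to 8, against 5, 8, 6 and 10 in VP16 replicates 1 to 4. VP16 replicate 1 had the fewest detected and VP16 replicate 4 shared the highest number with VP16LXRa replicate 5. Over the 108 probes of 72 other T and NK cell genes in the table, the numbers were 47, 36, 42 and 31 in VP16LXRa replicates 5 to 8 and 20, 39, 18 and 48 in VP16 replicates 1 to 4. The low tumors were again VP16 replicates 1 and 3, and the groups overlapped.

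The comparison asked whether an active LXRα is accompanied by a change in the T cell genes of colon tumors. No member differed between the groups beyond the spread of the tumors. The 6 genes of the list that could be tested, Cd3d, Cd3e, Cd3g, Lck, Cd8b1 and Itgae, had mean log2 intensities 0.18 to 0.74 higher in VP16LXRa tumors, where 50.4% of all tested probes and 52.3% of all tested genes were higher too, and none passed limma's test over all probes (adjusted p = 0.9999 for each, unadjusted p = 0.285 or larger). The median over these genes, which had to pass the detection filter, was a log2 difference of 0.39, beside 0.01 over all 9110 genes tested, and it was -0.0054 without VP16LXRa replicate 5 and VP16 replicate 1. Over all 11875 probes 0.00842% were called at an adjusted p under 0.05, 1.68% had an unadjusted p under 0.05 and 1.28% separated the groups. Of the 8 tested probes of the list, 0 did any of these.

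Cd3d, a CD3 chain found in complexes with CD3 epsilon, had log2 intensities of 7.67, 6.79, 8.11 and 6.96 in VP16LXRa replicates 5 to 8, against 5.38, 7.63, 5.51 and 8.04 in VP16 replicates 1 to 4. The VP16LXRa tumors lay inside the range of the VP16 tumors except replicate 7, which was the highest of the 8. VP16 replicates 1 and 3 were lowest, below every VP16LXRa tumor, and VP16 replicates 2 and 4 were among the 4 highest. Its log2 difference was 0.74 (SE 0.65, 95% interval -0.74 to 2.23), with means of 7.38 ± 0.62 in VP16LXRa and 6.64 ± 1.39 in VP16 tumors (SD, n = 4 each). The interval runs from a fold of 0.598 to one of 4.68, so neither a lower level nor a several-fold higher level in VP16LXRa tumors was set aside by these arrays.

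Cd3e, the epsilon chain that pairs with both other CD3 chains, stood at 7.22, 6.54, 7.68 and 6.93 in VP16LXRa replicates 5 to 8 and at 5.35, 7.23, 6.04 and 7.81 in VP16 replicates 1 to 4. It was not detected in VP16 replicate 1. All 4 VP16LXRa tumors lay between VP16 replicates 3 and 4. The log2 difference was 0.48 (SE 0.52, 95% interval -0.71 to 1.68).

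Cd3g, the gamma chain, had log2 intensities of 7.28, 6.47, 8.12 and 6.65 in VP16LXRa replicates 5 to 8, against 5.00, 7.15, 5.96 and 8.12 in VP16 replicates 1 to 4. VP16 replicate 1, where the probe was not detected, was lowest. The highest VP16LXRa and the highest VP16 tumor, replicates 7 and 4, had the same value at this precision. The difference was 0.57 (SE 0.66, 95% interval -0.95 to 2.09).

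Lck, the kinase that phosphorylates the CD3 chains, was detected in all 8 tumors. It stood at 7.75, 7.53, 8.75 and 7.5 in VP16LXRa replicates 5 to 8, against 6.65, 8.44, 6.71 and 8.77 in VP16 replicates 1 to 4. Every VP16LXRa tumor lay inside the VP16 range, and the difference was 0.24 (SE 0.55, 95% interval -1.01 to 1.49). The sign was negative without VP16LXRa replicate 7 (-0.047), VP16 replicate 1 (-0.09) or VP16 replicate 3 (-0.07).

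Cd8b1 at its detected probe had values of 6.58, 6.11, 7.42 and 7.36 in VP16LXRa replicates 5 to 8 and of 5.40, 7.33, 5.28 and 8.33 in VP16 replicates 1 to 4. Here too the VP16LXRa tumors all lay inside the VP16 range, and VP16 replicate 3, the lowest tumor, was not detected. The log2 difference was 0.29 (SE 0.69, 95% interval -1.29 to 1.87), and it was -0.11 without VP16 replicate 1 and -0.15 without VP16 replicate 3.

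**Figure D2:**
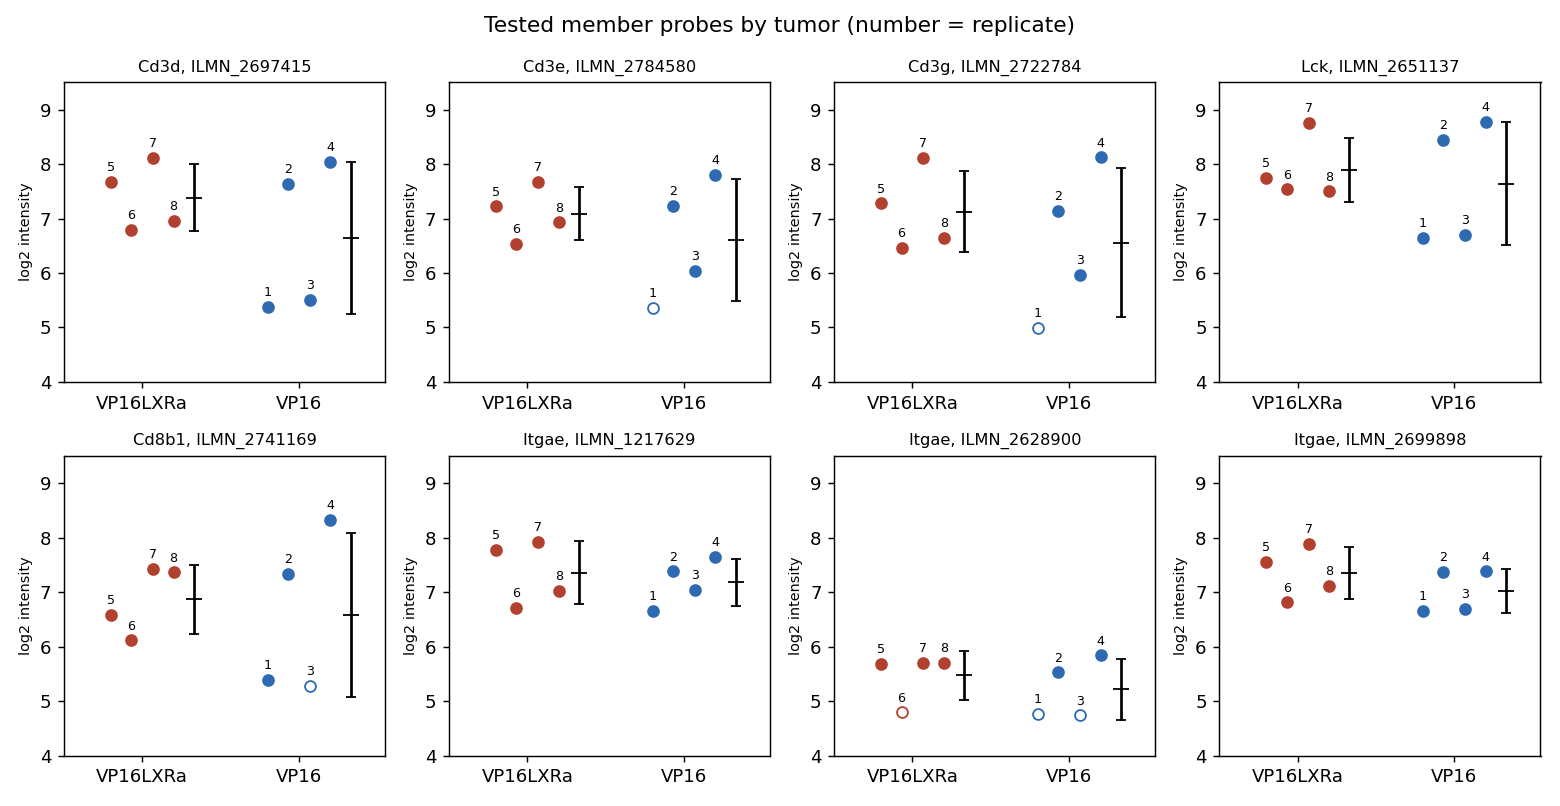
Normalized log2 intensity of each of the 8 tested probes in each tumor (point, with its replicate number), VP16LXRa left of VP16. Open points have a detection p-value of 0.01 or above, and the bar beside each group is its mean with the SD of 4 tumors. In every panel VP16 replicates 2 and 4 lie above VP16 replicates 1 and 3, and VP16LXRa replicate 7 is the highest of its group.

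Itgae, which marks T cells within the epithelium and some dendritic cells, has 6 probes, 3 for transcript variant 1 and 3 for variant 2 by the table's definitions. Of these 3 could be tested. ILMN_1217629, for variant 1, stood at 7.78, 6.72, 7.92 and 7.02 in VP16LXRa replicates 5 to 8, against 6.65, 7.38, 7.05 and 7.65 in VP16 replicates 1 to 4. ILMN_2699898, also for variant 1, stood at 7.56, 6.81, 7.89 and 7.11 in VP16LXRa and at 6.65, 7.38, 6.69 and 7.38 in VP16 tumors. On both probes VP16LXRa replicates 5 and 7 were the highest of the 8 tumors and the groups overlapped. The differences were 0.18 (SE 0.33, 95% interval -0.57 to 0.93) and 0.32 (SE 0.29, 95% interval -0.34 to 0.98).

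ILMN_2628900, for variant 2, passed in 3 of 4 VP16LXRa tumors and 2 of 4 VP16 tumors, and its difference was 0.26 (SE 0.33, 95% interval -0.49 to 1.00). The other 3 Itgae probes were detected in 2, 1 and 0 of 4 VP16LXRa tumors and in 0 of 4 VP16 tumors each. ILMN_1249573 passed the detection limit in VP16LXRa replicates 5 and 6, at raw signals of 145 and 144, while VP16 replicate 4 had a signal of 143 with a detection p-value of 0.0263. These counts lie at the detection limit. All 3 tested probes had positive differences with the 8 tumors, and that of ILMN_1217629 was -0.14 without VP16LXRa replicate 5 and VP16 replicate 1.

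**Figure D3:**
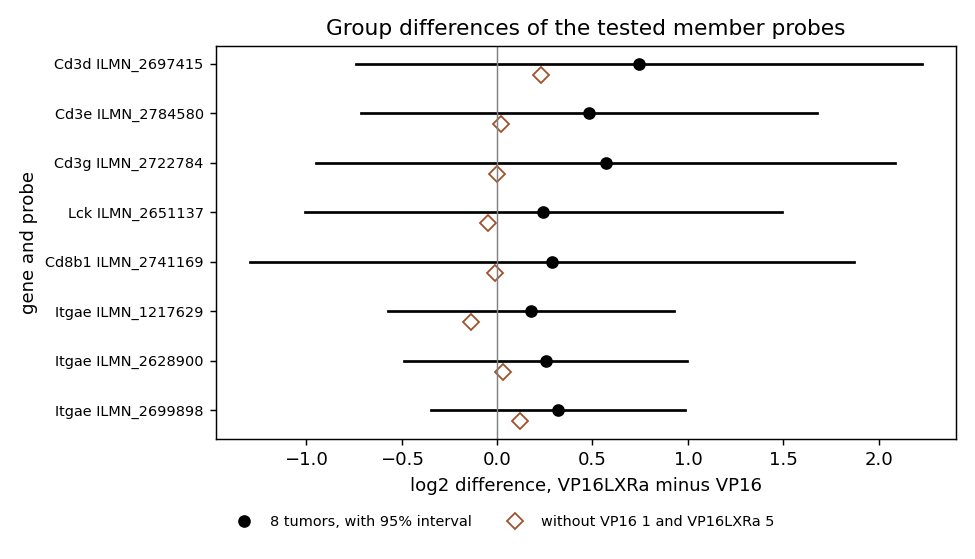
Log2 difference, VP16LXRa minus VP16, of the 8 tested probes (filled points) with limma's 95% interval from 8 tumors, and the same difference without VP16LXRa replicate 5 and VP16 replicate 1 (open diamonds). All 8 intervals include 0, and without the pair the differences lie between -0.14 and 0.23.

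Tumors of the same group varied widely in the T cell genes. In VP16 tumors the SDs of Cd3d, Cd3e, Cd3g, Lck and Cd8b1 were 1.39, 1.11, 1.36, 1.12 and 1.5 log2 units, above the SDs of 95.2% to 98.3% of all tested probes in the same tumors, whose median was 0.326. In VP16LXRa tumors their SDs were 0.62, 0.48, 0.75, 0.59 and 0.63, above those of 68.7% to 85.8% of probes. A difference in spread between the groups was not tested. The brightest Itgae probe varied less among VP16 tumors, with an SD of 0.43, and had an SD of 0.58 among VP16LXRa tumors.

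The members ordered the tumors alike. In all 8 tested probes VP16 replicates 2 and 4 lay above VP16 replicates 1 and 3, and VP16LXRa replicate 7 was the highest of its group. This joint order, which was chosen after the values were seen, held for 5.73% of all tested probes. Of the 32 tested genes of the wider T and NK cell list 19 shared it. Among the 10 of these that belong to T cell receptor signalling 9 did. The other roles of that list had fewer: 3 of 7 receptors that raise or restrain activation and 1 of 4 lineage factors. So did 3 of 6 cytotoxic and NK cell genes and 3 of 5 homing and cytokine receptors. Outside that list the order held for 4 of 6 B and plasma cell markers, 1 of 3 dendritic cell markers and 1 of 13 ligands and niche signals. It held for 0 of 11 macrophage, 0 of 10 colon epithelium and 0 of 9 stroma and vessel markers. Averaged over the 6 tested genes after centring each, the list stood at 0.30, -0.38, 0.92 and -0.0075 in VP16LXRa replicates 5 to 8, against -1.34, 0.45, -0.99 and 1.04 in VP16 replicates 1 to 4.

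A profile of the receptor core, the mean of Cd3d, Cd3e, Cd3g and Lck, was compared with that of every other tested gene by the root mean square difference of centred log2 values over the 8 tumors. The median over all 9110 genes was 0.939. The 8 nearest genes outside the list were Gpr171, a G protein-coupled receptor (0.175), the adaptor Lat that links the receptor to downstream signals (0.21), the transcription factor Stat4 that acts below interleukin 12 (0.261), the phosphatase Ptpn22 (0.269), the surface receptor Cd6 (0.288), the adaptor Sh2d2a (0.293), H2-DMa, a chaperone of MHC class II peptide loading (0.332), and the costimulatory receptor Icos (0.339). Lat, Ptpn22, Cd6, Sh2d2a and Icos belong to the wider T and NK cell list. Of the members outside the core, Cd8b1 ranked 25 and Itgae ranked 64 among the 9110 genes, at 0.437 and 0.549. Gpr171, the nearest of the 8, stood at 6.54, 5.92, 7.02 and 5.91 in VP16LXRa replicates 5 to 8, against 4.78, 6.70, 4.99 and 6.77 in VP16 replicates 1 to 4. Gpr171 was low in VP16 replicates 1 and 3, where it was not detected, and the groups overlapped. Lat, Stat4, Ptpn22 and Sh2d2a were not detected in VP16 replicates 1 and 3 either. Their nearness to the core thus rests in part on values at background.

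The 3 CD3 genes lie next to each other, and their promoters are shown because their RNAs ordered the tumors alike, with both annotated starts of Lck for the kinase that acts on the CD3 chains. The sequences are RefSeq's, build GRCm38.p6, from 250 bases before to 50 after each start, 5′ to 3′ on the gene's strand. Of the 10 listed genes 7 matched the promoter table. The starts of Cd3g and Cd3d lie 1355 bases apart on chromosome 9 and point away from each other, and that of Cd3e lies 27825 bases from that of Cd3d. Capitals mark the letters AGGAAG, a core bound by ETS factors, or TGTGGT, a core bound by RUNX factors, on either strand.
Cd3g, chr9:44980382-44980681, - strand: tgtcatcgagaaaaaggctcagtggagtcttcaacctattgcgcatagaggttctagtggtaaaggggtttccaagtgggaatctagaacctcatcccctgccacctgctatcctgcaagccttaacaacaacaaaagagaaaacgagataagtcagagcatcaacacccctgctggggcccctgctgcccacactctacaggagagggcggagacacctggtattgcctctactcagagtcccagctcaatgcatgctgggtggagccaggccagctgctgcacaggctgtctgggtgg
Cd3d, chr9:44981536-44981835, + strand: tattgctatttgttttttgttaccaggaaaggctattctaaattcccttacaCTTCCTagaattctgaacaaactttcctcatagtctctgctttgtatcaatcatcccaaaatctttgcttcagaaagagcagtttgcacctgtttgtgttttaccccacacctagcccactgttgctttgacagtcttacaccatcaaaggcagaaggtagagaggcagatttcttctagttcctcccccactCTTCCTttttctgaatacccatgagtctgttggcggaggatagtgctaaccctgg
Cd3e, chr9:45009562-45009861, - strand: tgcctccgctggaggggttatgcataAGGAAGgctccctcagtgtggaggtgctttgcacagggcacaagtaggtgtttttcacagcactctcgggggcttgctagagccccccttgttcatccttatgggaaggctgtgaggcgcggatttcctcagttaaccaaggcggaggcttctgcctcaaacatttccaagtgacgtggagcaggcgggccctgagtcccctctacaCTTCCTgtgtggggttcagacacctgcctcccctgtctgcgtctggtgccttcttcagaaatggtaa
Lck, chr4:129573592-129573891, - strand: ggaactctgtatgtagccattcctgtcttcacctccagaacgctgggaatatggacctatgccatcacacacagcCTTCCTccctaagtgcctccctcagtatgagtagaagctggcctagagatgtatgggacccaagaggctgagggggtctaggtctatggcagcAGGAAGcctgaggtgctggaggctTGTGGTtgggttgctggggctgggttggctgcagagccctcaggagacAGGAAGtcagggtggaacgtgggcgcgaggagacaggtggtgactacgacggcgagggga
Lck, chr4:129558323-129558622, - strand: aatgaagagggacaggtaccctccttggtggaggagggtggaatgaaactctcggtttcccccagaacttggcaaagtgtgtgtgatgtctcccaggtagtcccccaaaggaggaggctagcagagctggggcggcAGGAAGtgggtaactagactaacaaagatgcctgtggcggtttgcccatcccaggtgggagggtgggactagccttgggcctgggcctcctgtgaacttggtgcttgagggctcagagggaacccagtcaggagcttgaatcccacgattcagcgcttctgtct

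AGGAAG or its complement CTTCCT occurred 0 times in the Cd3g window, 2 times in that of Cd3d, 2 times in that of Cd3e, and 3 times and 1 time in the Lck windows, and 35.4% of all 32851 promoter windows of this length held it. TGTGGT or its complement ACCACA occurred 1 time in the upstream Lck window and 0 times in the other windows shown, against 16.8% of all windows. AGATAA, a core bound by GATA factors, occurred 1 time in the Cd3g window and 0 times in the others shown, against 11.2% of all windows. A direct repeat of the kind bound by LXR with its partner RXR, searched as AGGTCA, any 4 bases and AGGTCA again on either strand, occurred in 0 of the 8 windows of the 7 matched genes and in 0.0152% of all windows. Only these exact letters were searched. No match of one motif overlapped a match of another in the windows shown. A match is a string of letters, and its absence says only that these letters are not in these windows.

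No other gene of T and NK cells passed the adjusted threshold. The wider list held 79 genes, 72 were in the table, 32 could be tested, and 24 were detected on no array. Of the 32, 0 passed limma's adjusted threshold and 1, Il7r, had an unadjusted p under 0.05. Positive differences were seen in 28 of the 32, against that 52.3% of all genes, and the median log2 difference was 0.25. These 32 had to pass the detection filter, and some passed it on more VP16LXRa than VP16 tumors. With no filter 49 of the 72 were positive, with a median of 0.10. A share over all genes without the filter was not computed. Without VP16LXRa replicate 5 and VP16 replicate 1, 15 of 32 were positive, beside 53% of all tested genes, the median was -0.037, and 0 had an unadjusted p under 0.05 or passed the adjusted threshold. By role, 5 of 10 T cell receptor signalling genes, 2 of 7 activating or inhibitory receptors, 2 of 4 lineage factors, 3 of 6 cytotoxic and NK cell genes and 3 of 5 homing and cytokine receptors were then positive.

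Among genes of T cell receptor signalling 10 of 19 in the table were tested, 10 had positive differences and 0 passed. Cd6, which binds a ligand on other cells and tunes receptor signals, differed by 0.62 (SE 0.67), the guanine exchange factor Vav1 by 0.46 (SE 0.43), Sh2d2a by 0.57 (SE 0.70) and Ptpn22 by 0.41 (SE 0.44), each short of the threshold. Zap70, the kinase recruited to phosphorylated CD3 chains, differed by 0.16 (SE 0.41). Zap70 stood at 6.44, 6.00, 7.06 and 6.2 in VP16LXRa replicates 5 to 8 and at 6.18, 6.81, 5.17 and 6.91 in VP16 replicates 1 to 4. Cd247, the zeta chain of the receptor, has 3 probes, of which 1 reached the detection limit, in 2 VP16LXRa tumors and 1 VP16 tumor, and it was not tested.

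Of the receptors that raise or restrain activation 7 of 13 were tested, 7 had positive differences and 0 passed. Ctla4, an inhibitory receptor abundant on regulatory T cells, differed by 0.47 (SE 0.60) and the inhibitory receptor Havcr2 by 0.39 (SE 0.52). The costimulatory receptors Tnfrsf4 and Tnfrsf18 differed by 0.33 (SE 0.50) and 0.27 (SE 0.44). Ctla4 was highest in VP16LXRa replicate 5, at 7.25, beside 4.75 to 6.51 in the other VP16LXRa tumors and 4.44 to 6.62 in VP16 tumors. The inhibitory receptor Pdcd1 was detected on no array.

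Of the lineage transcription factors 4 of 8 in the table were tested, 2 in each direction, and 0 passed. Foxp3, which defines regulatory T cells, stood at 6.50, 5.27, 5.67 and 5.42 in VP16LXRa replicates 5 to 8, against 5.15, 5.82, 4.91 and 5.54 in VP16 replicates 1 to 4. It passed the detection limit in 4 of 4 VP16LXRa tumors and 2 of 4 VP16 tumors, the groups overlapped and the difference was 0.36 (SE 0.31), or 0.03 (SE 0.26) without that pair. Bcl11b, which fixes T cell identity, differed by 0.29 (SE 0.33), and Ets1 by -0.02 (SE 0.47). Bcl11b was highest in VP16LXRa replicate 5 (9.38) and VP16 replicate 1 (9.34). VP16 replicate 1 was the lowest tumor for Cd3d, Cd3e, Cd3g and Lck, so that Bcl11b did not follow their order. Tbx21, Eomes and Runx3, factors of cytotoxic and type 1 cells, were detected on no array.

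Of the cytotoxic and NK cell genes 6 of 17 in the table were tested, 5 had positive differences and 0 passed. Prf1, for perforin, which opens pores in target cells, stood at 11.57, 11.07, 11.71 and 11.08 in VP16LXRa replicates 5 to 8, against 11.39, 11.24, 10.70 and 10.51 in VP16 replicates 1 to 4. It was detected in all 8 tumors and differed by 0.40 (SE 0.26, 95% interval -0.19 to 0.98), and by 0.47 (SE 0.27) without the pair of tumors that stood apart. Its lowest tumor, VP16 replicate 4, was among the 2 highest for Cd3d, Cd3e, Cd3g, Lck and Cd8b1, so that Prf1 did not follow their order. Which cells the Prf1 signal came from was not tested. Cd160, a receptor of intraepithelial T and NK cells, differed by 0.25 (SE 0.25), Klrd1, the CD94 chain of NK receptors, by 0.17 (SE 0.21) and the protease Ctsw by 0.19 (SE 0.54). Klrd1 passed the detection limit in 4 of 4 VP16LXRa tumors and 1 of 4 VP16 tumors, at 5.38 to 5.61 and 5.03 to 5.86. The NK receptors Ncr1, Klrb1c and Klrk1 were detected on no array.

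Of the homing and cytokine receptors 5 of 15 were tested, 4 had positive differences and 0 passed the adjusted threshold. Il7r, the interleukin 7 receptor chain that keeps naive and memory T cells and innate lymphoid cells alive, had the smallest p of the list. It stood at 6.79, 6.51, 6.46 and 6.15 in VP16LXRa replicates 5 to 8, against 5.34, 6.27, 5.54 and 5.84 in VP16 replicates 1 to 4. Only VP16LXRa replicate 8 lay below the highest VP16 tumor, and the difference was 0.73 (SE 0.24, unadjusted p = 0.0138, limma adjusted p = 0.9999). Without VP16LXRa replicate 5 and VP16 replicate 1 it was 0.49 (SE 0.22), with an unadjusted p of 0.0653 in limma's test. Itgb7, whose product pairs with that of Itgae, differed by 0.51 (SE 0.54), the shared cytokine receptor chain Il2rg by 0.43 (SE 0.51) and Il18r1 by -0.29 (SE 0.39). Of the gut homing receptors Ccr9 and Itga4, neither was detected on any array.

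**Figure D4:**
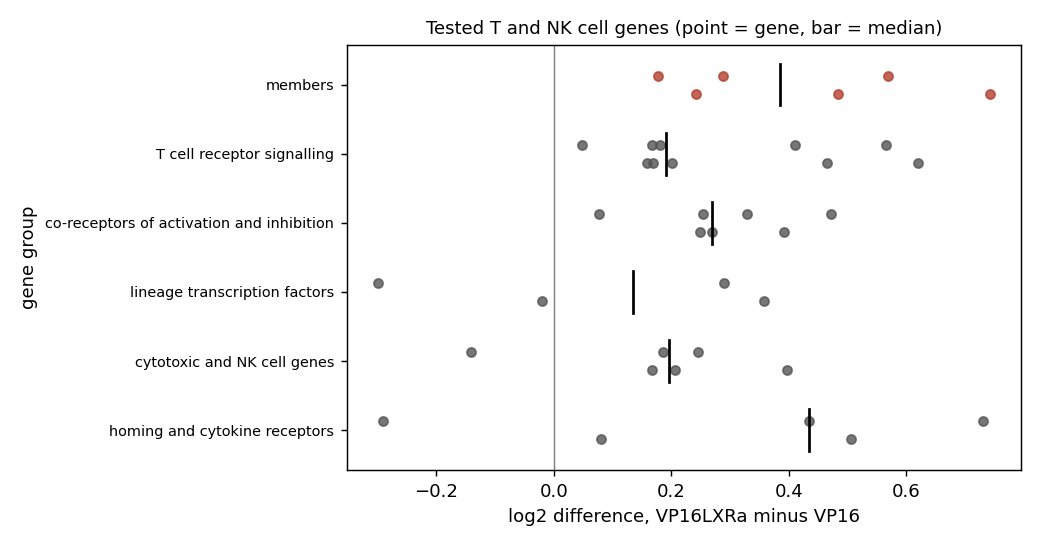
Log2 difference, VP16LXRa minus VP16, of each tested gene of the list (red) and of the wider T and NK cell list by role (gray), each gene at its brightest tested probe, with the median of each row as a bar. The highest gene lies at 0.74, and none passed the adjusted threshold.

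Ligands and niche signals of T cells had mostly negative differences, with 4 of 13 tested genes at positive differences, a median of -0.089 and 0 past the threshold. Cdh1, which encodes the E-cadherin bound by the Itgae integrin, stood at 11.43 ± 0.25 in VP16LXRa and 11.61 ± 0.16 in VP16 tumors (SD, n = 4 each), a difference of -0.18 (SE 0.17). The chemokine Ccl25, which draws T cells to the small intestine, differed by 0.55 (SE 0.36), the MHC class II gene H2-Aa by -0.73 (SE 0.62) and the interleukin 15 presenting chain Il15ra by -0.25 (SE 0.29). H2-Ab1, the other MHC class II gene of these ligands, differed by 0.17 (SE 0.62). Without the pair 2 of 13 were positive, with a median of -0.35.

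Markers of other cells are given beside the T cell genes because some members are not restricted to T cells, and their part in the values above was not tested. Of 10 B and plasma cell genes 9 were in the table and 6 were tested, and their summed intensity was 91.0 to 2679 in VP16LXRa and 109 to 2318 in VP16 tumors. B and plasma cell markers averaged -1.59, 0.74, 1.64 and -0.71 after centring in VP16LXRa replicates 5 to 8, and -1.49, 1.5, -0.74 and 0.65 in VP16 replicates 1 to 4. They were thus high in VP16LXRa replicate 7 and VP16 replicates 2 and 4, as the T cell genes were, but also in VP16LXRa replicate 6, and low in VP16LXRa replicate 5. Blk, a kinase of B cells and some T cells, differed by 0.26 (SE 1.13), and Igj, the joining chain of IgA, by 0.12 (SE 0.65). The B cell factor Pax5 was detected on no array.

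Of 12 macrophage genes, all in the table, 11 were tested, with summed intensities of 3254 to 13424 in VP16LXRa and 2836 to 6766 in VP16 tumors and 10 positive differences. The 3 with the smallest p were Emr1 at 0.72 (SE 0.34), C1qb at 0.86 (SE 0.42) and Csf1r at 0.49 (SE 0.31). The macrophage markers averaged highest in VP16LXRa replicate 5 (1.29) and VP16 replicate 1 (0.35). VP16 replicate 1 was the lowest tumor for Cd3d, Cd3e, Cd3g and Lck. Itgam, an integrin of myeloid cells, was detected on no array. Of 10 dendritic cell genes, 9 in the table, 3 were tested and 6 (Cd209a, Clec9a, Flt3, Itgax, Xcr1 and Zbtb46) were detected on no array. The dendritic cell sums were 354 to 806 in VP16LXRa and 274 to 732 in VP16 tumors, with Siglech at 0.31 (SE 0.25), Ly75 at -0.40 (SE 0.36) and Cd83 at 0.16 (SE 0.70).

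Of 11 mast cell genes 9 were in the table and 5 were tested, with sums of 101 to 4051 in VP16LXRa and 138 to 1275 in VP16 tumors, and Cpa3 at 1.22 (SE 0.55), Mcpt4 at 0.72 (SE 0.44) and Hdc at 0.38 (SE 1.42). The remaining tested mast cell genes, Mcpt1 and Gata2, differed by -0.0015 (SE 0.85) and 0.0016 (SE 0.31), and the list median was 0.38. Cpa3 and Mcpt4 each passed the detection limit on 3 VP16LXRa arrays but only 1 VP16 array, that of replicate 1. Both thus met the filter of 4 arrays mostly through the group in which they were higher. Mcpt2 and Ms4a2 were detected on no array. Of 9 neutrophil genes 6 were in the table and 2 were tested, Retnlg at 2.11 (SE 0.87) and Csf3r at 0.07 (SE 0.54), with sums of 76.8 to 1474 in VP16LXRa and 43.0 to 231 in VP16 tumors and with Mpo detected on no array. Retnlg had an unadjusted p of 0.0405 and an adjusted p of 0.9999 in limma's test. The 10 epithelial markers had sums of 54076 to 98989 in VP16LXRa and 75433 to 113890 in VP16 tumors. All 10 had negative differences, such as Vil1 at -0.37 (SE 0.25), Krt19 at -0.30 (SE 0.21) and Cldn3 at -0.18 (SE 0.15), and VP16LXRa replicate 5 was lowest, at -2.29 after centring. Of 11 stroma and vessel genes 9 were tested, with sums of 25666 to 42666 in VP16LXRa and 9848 to 58437 in VP16 tumors. Their differences had a median of 0.13 and ran from -0.11 to 0.55. Those with the smallest p were Col3a1 at 0.49 (SE 0.45), Col1a2 at 0.37 (SE 0.45) and Col1a1 at 0.55 (SE 0.85). VP16 replicate 4, among the 2 highest tumors for the CD3 genes, was the lowest for stroma (-1.40 after centring). No marker in these lists passed the adjusted threshold.

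Without VP16LXRa replicate 5 and VP16 replicate 1, positive differences were left in 5 of 6 B and plasma cell genes (median 0.14), 8 of 11 macrophage genes (0.36), 1 of 3 dendritic cell genes (-0.048), 3 of 5 mast cell genes (0.15), 2 of 2 neutrophil genes (0.93), 1 of 10 epithelial markers (-0.15) and 8 of 9 stroma and vessel genes (0.51). None passed the adjusted threshold, and an unadjusted p under 0.05 was found for 3 macrophage genes, 1 neutrophil gene and 1 epithelial marker. Of all 11875 tested probes, 385 had an unadjusted p under 0.05 in that fit. Hdc, the histidine decarboxylase of mast cells, differed by -0.10 (SE 0.34) without the pair, and Retnlg by 1.72 (SE 0.62).

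**Figure D5:**
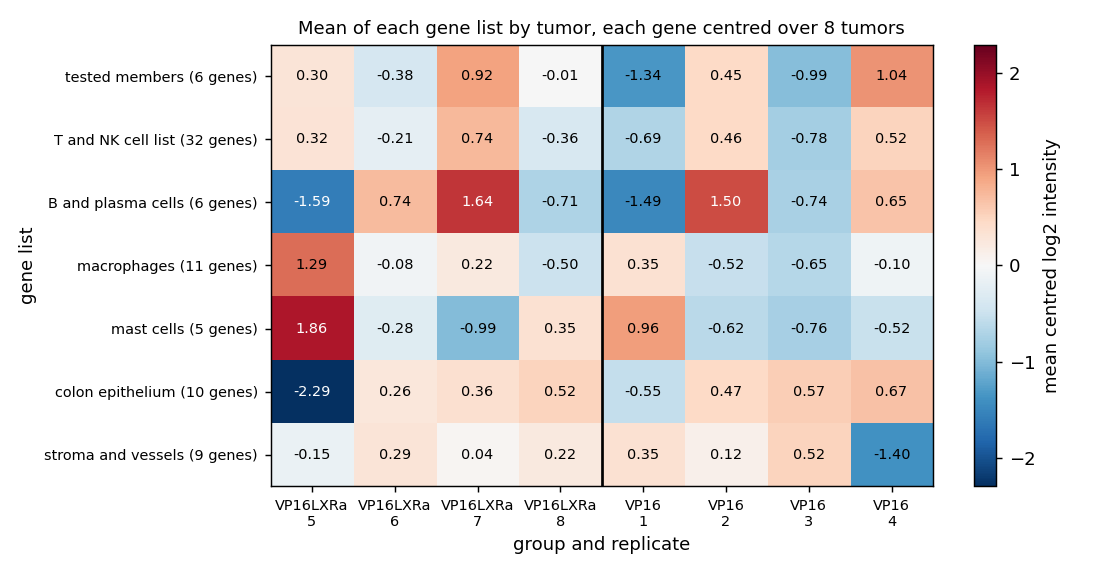
Mean log2 intensity of each gene list in each tumor, each gene centred over the 8 tumors, VP16LXRa replicates 5 to 8 on the left and VP16 replicates 1 to 4 on the right, with the number of tested genes in brackets. The rows of the tested members and of the T and NK cell list are lowest in VP16 replicates 1 and 3, and the macrophage and mast cell lists are highest in VP16LXRa replicate 5.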

How the data were processed

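The members and gene lists were chosen with earlier results of these data known. QIAzol served for RNA extraction and a TotalPrep kit for biotin labelling, per the labels' protocols. Per the file headers, the deposited table lists 25697 probes with a bead signal (an intensity, not normalized) and a detection p-value on 8 arrays. GenomeStudio is named, with no version, in the submitters' processing notes. A second table holds the authors' processed intensities, on a linear scale with medians of 18.04 to 18.16, whose steps are not given in the sources used here. Neither table holds slides, dates or probe sequences. No pair of arrays held identical values (highest correlation 0.974).

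Background was removed by limma's neqc, which fits normexp by way of the detection p-values, followed by quantile normalization and log2 with an offset of 16 (limma 3.58.1, R 4.3.3). With this offset, fold changes near background come out smaller than they are. The test covered the 46.2% of probes whose detection p-value lay under 0.01 on 4 or more arrays, and was run with lmFit and eBayes, VP16LXRa minus VP16, two-sided, with Benjamini-Hochberg adjustment over all of them. A list takes each gene at its brightest tested probe, and summed intensities are linear values less the offset. Alternatives changed the background correction, scaling, offset, filter, variance model, array weights, probe rule and the tumors included, or took the authors' processed values. The fit was tested on simulated data. The number of arrays limits the precision. Gene names are the array file's. Named were all members, up to 4 genes of each T cell group and of the ligands and up to 3 of each other cell type by smallest p, a fixed few (Prf1, Cd247, Zap70, Itgb7, Cdh1, Axin2, Aqp8) and the 8 nearest profiles. Some genes that this rule names are not reported here. Genes named as not detected, and Gzmk, Gzmm, Mcpt1, Gata2 and H2-Ab1, were chosen after their values were seen.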

Additional observations from a re-analysis of the deposited data

Results flagged for a closer look

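Of 116 groups of 4 tumors examined, 7 held a tumor whose gap to its nearest neighbour took up most of the range of the group, by a limit (Dixon's) set so that chance flags about 1 in 20 groups. Among the members this was the Itgae probe for transcript variant 2, ILMN_2628900, at 4.79 in VP16LXRa replicate 6 and 5.69 to 5.71 in the other VP16LXRa tumors. Il18r1 stood at 4.35 in VP16LXRa replicate 8, against 5.55 to 5.71 in the rest of its group. In VP16LXRa replicate 5, Hdc stood at 11.79 (5.86 to 6.84 in the rest of its group), Col1a1 at 10.16 (7.37 to 7.70), Axin2 at 11.54 (8.73 to 9.05) and Aqp8, a water channel of colonocytes, at 4.54 (12.41 to 12.78). Aqp8 also stood at 9.17 in VP16 replicate 1, below the other VP16 tumors, of which the highest stood at 13.2. Hdc and Col1a1 were not flagged in VP16 replicate 1 but were the highest of their group there too. Hdc stood at 9.96 (5.97 to 6.82 in the other VP16 tumors) and Col1a1 at 9.66 (6.15 to 7.40). Axin2 and Aqp8 were examined because earlier results of these data had already set them apart in these tumors. Their flags therefore cannot be held against the chance rate.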

How the results depend on the processing

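No paired analysis was possible because VP16 tumors are numbered 1 to 4 and VP16LXRa tumors 5 to 8, so no number is shared. Over 19 alternatives no tested member and no gene of the wider T and NK cell list passed limma's adjusted threshold, and over the 140 values of member probes the smallest unadjusted p was 0.081. Of these 140 differences 130 were positive, but they are refits of the same 8 probes in the same tumors and not separate evidence of direction. Without VP16LXRa replicate 5 and VP16 replicate 1 the log2 differences of Cd3g (-0.00032), Cd8b1 (-0.011), Itgae ILMN_1217629 (-0.14) and Lck (-0.046) turned negative. With single tumors left out, Lck ranged from -0.090 to 0.62, Cd8b1 from -0.15 to 0.87 and Itgae ILMN_1217629 from -0.0096 to 0.39, the last turning without VP16LXRa replicate 7. The median difference of the member genes ranged from 0.026 (without VP16 replicate 1) to 0.88 (without VP16 replicate 4) and that of the wider list from 0.054 (without VP16 replicate 3) to 0.49 (without VP16 replicate 2). Without background correction these medians were 0.15 and 0.089, with an offset of 50 they were 0.25 and 0.14, and with the authors' processed values 0.39 and 0.28. With no filter the member median was 0.24 and that of the wider list 0.10. Detection on all 8 arrays left 3 member genes and the same member median. Over all probes 1 passed in the chosen processing, 0 passed without background correction, with an offset of 50, with no filter or with detection on all 8 arrays (unadjusted p under 0.05 for 181, 181, 676 and 143 probes), 4 passed without the pair of tumors, and 0 to 2 with single tumors left out. The cause was not tested. Cd4, Cd8a and Gzmb lay at or near background, which limits what these arrays can show of them.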
